A study of Rattus norvegicus with 84 samples.

Results

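The 8 hemoglobin genes described here are Hba1, Hba2 and Hba-a1 of the alpha family, Hbb, Hbb-b1, LOC100134871 and LOC689064 of the beta family, and Hbq1b, the theta gene of the alpha cluster. They were taken by a set list of symbols, drawn up with earlier results of these data known, and are 8 of 18782 annotated genes in tables that list 26637 genes once the authors' new ones are included. Other globin rows, among them LOC103694855, LOC103694857, Hbe1, Hbe2 and Hbg1, are outside the list and enter no share or sum below, although LOC103694855 and LOC103694857 had mean levels of 681 and 521 FPKM in plasma. The RNA of the 8 genes was followed in extracellular vesicles (EVs), the membrane-bound particles that cells release, from the plasma and the brain of the same rats.

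Hemoglobin is the oxygen carrier of red cells, a tetramer of alpha-type and beta-type globin chains that each hold a heme group. Globin mRNA is made in erythroid precursors under factors such as Gata1 and Klf1, and the precursors make large amounts of heme at the same time. Young red cells, the reticulocytes, still hold this mRNA and shed it in vesicles as they mature, so globin transcripts are a familiar part of blood RNA. Lower levels of alpha and beta globin mRNA are also known from some neurons and glia.

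The rats were male wild-type Sprague-Dawley animals of 8 to 12 weeks, in 7 groups of 3. The healthy group had no stroke, and the other 18 rats had a 90 min occlusion of the middle cerebral artery and, on day 3 poststroke, an injection of saline (control) or of 200000 human neural stem cells (hNSCs) into the carotid artery. They were killed at 4, 10 or 31 days (d) poststroke, so that control and hNSCs rats share the occlusion and an injection into the artery. The cells were given in glucose buffer, so effects of the cells and of their carrier cannot be told apart. Brain EVs came from frozen tissue of the hemisphere on the side of the stroke and plasma EVs from blood (1 passage of the labels, on EV isolation, calls this material serum). Libraries with the same group and replicate number were taken as those of 1 rat, which was assumed and not tested. Because hNSCs are human cells, only long RNA that aligned to the rat genome and miRNAs listed as those of the rat are described. The paper found that part of the miRNAs in hNSCs EVs have the same sequence as rat ones. Human and rat copies of such a miRNA cannot be told apart here.

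The 42 mRNA libraries, one of each rat and tissue, held 11878367 to 49824782 counts in plasma and 13221461 to 37651652 in brain. Annotated genes took 45.1% to 75.6% of the plasma counts (median 61.4%) and 3.18% to 51.9% of the brain counts (median 20.6%), and the brain share was 29.9% to 51.9% at 31 d but 3.18% to 16.9% at 10 d. Of the plasma libraries, healthy replicate 2 (24655822 counts) and hNSCs 4 d replicate 2 (11878367 counts) were the shallowest of their groups. Map1a, Map1b and Mbp led the neuron and glia marker list in brain, none of the 15 listed markers was at 0 in any brain group, and their summed level was 13545 to 21903 CPM (counts scaled to a common library size), against 88.7 to 670 CPM in plasma of healthy and control rats. These libraries are bulk RNA, in which fewer vesicles of a cell type and less RNA per vesicle cannot be told apart. The paper names red cell debris and nucleic acids outside vesicles among the confounders of EV work on blood. It describes perfusion for the stained brains but not for the frozen tissue used for EVs. The part of such debris, of RNA outside vesicles and of blood left in the brain was not tested.

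The beta-globin genes lie in a cluster on chromosome 1, and their promoters are shown because the 4 genes moved together in plasma while one of them, Hbb-b1, made up a larger part of beta-globin RNA at 4 d. By RefSeq symbol or synonym 5 of the 8 genes were matched in the GRCr8 assembly; Hba1, Hba2 and Hba-a1 were not matched. The 110 bases before the annotated start are given 5′ to 3′ on the minus strand, with forward matches to 3 letter strings in capitals. They are CCAAT, the box of that name in many promoters, then CACCC, the core of sites that Klf1 can bind, and last ATAAA, a form of the TATA box known from globin genes. Matches did not overlap one another in the sequences shown.
Hbb, chr1:167663722-167663831: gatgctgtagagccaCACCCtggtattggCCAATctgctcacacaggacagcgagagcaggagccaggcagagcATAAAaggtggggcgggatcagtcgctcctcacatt
LOC100134871 (Hbbl1 in RefSeq), chr1:167650236-167650345: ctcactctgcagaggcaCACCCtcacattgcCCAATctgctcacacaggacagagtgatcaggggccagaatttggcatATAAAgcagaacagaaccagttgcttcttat
Hbb-b1, chr1:167643521-167643630: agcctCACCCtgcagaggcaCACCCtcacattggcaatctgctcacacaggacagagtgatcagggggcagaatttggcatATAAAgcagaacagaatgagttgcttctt
LOC689064 (Hbb-bs in RefSeq), chr1:167631631-167631740: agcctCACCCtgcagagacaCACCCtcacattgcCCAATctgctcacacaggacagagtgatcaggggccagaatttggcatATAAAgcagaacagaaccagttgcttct

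In these windows Hbb held the CACCC string at -95 from the start, that of the CCAAT box at -81 and ATAAA at -36, and LOC100134871 held them at -93, -79 and -31. LOC689064 held 2 matches to CACCC, the first at -105, the CCAAT box at -76 and ATAAA at -28. Hbb-b1 held 2 CACCC matches, the first at -105, and ATAAA at -29, but no CCAAT on the strand shown. On the other strand Hbb and Hbb-b1 each held 1 match to it. None of the 3 strings was found forward in the window of Hbq1b. On the forward strand 9.7% of 33469 promoters of the same length held CCAAT, while 13.3% held CACCC, another 12.2% held ATAAA and 0.167% held all 3, and on either strand the shares of the strings were 18.5%, 27.6% and 19.9%. The windows of Hbb-b1, LOC100134871 and LOC689064 were 90.3% to 93.7% identical to one another and 66.7% to 68.7% identical to that of Hbb. The genes of each family are known as close paralogs, whose own sequences were not compared here, and how reads shared by copies were counted is not given in the sources used here, so the split of a family's counts among its members is uncertain and each family was also tested as a sum.

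In plasma EVs the hemoglobin genes took between 0.893% and 28.2% of all annotated counts. The 3 healthy libraries held 7.28%, 4.13% and 10.5%. The control libraries held 3.31%, 2.54% and 1.62% at 4 d, 13.96%, 17.6% and 17.2% at 10 d, and 6.76%, 10.2% and 17.2% at 31 d. The hNSCs libraries held 1.93%, 0.893% and 1.39% at 4 d, 27.9%, 25.3% and 12.5% at 10 d, and 28.2%, 21.8% and 21.9% at 31 d. All 6 libraries at 4 d lay below the lowest healthy library, and every library at 10 d and every hNSCs library at 31 d lay above the highest healthy library. The 95% Clopper-Pearson interval of the lowest share was 0.8858% to 0.9004%, which covers counting error only and not the spread between rats. These reads carry no molecular identifiers, so copies of one molecule count as separate reads and the interval may be too narrow.

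**Figure D1:**
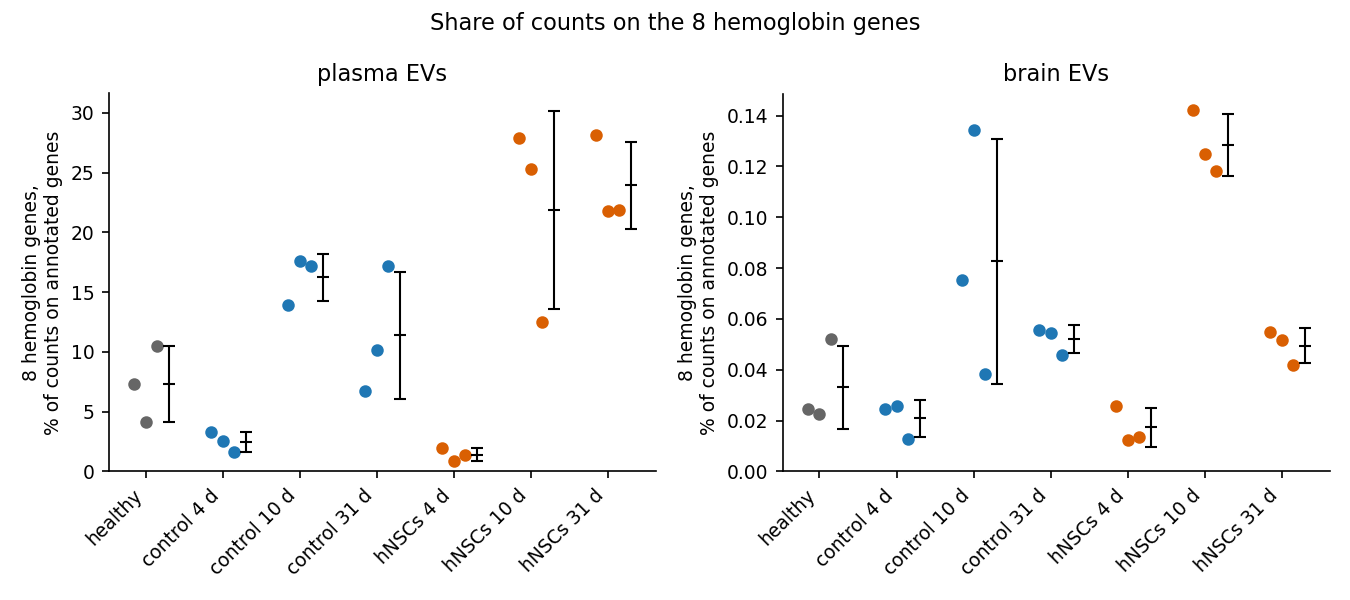
Share of the counts on annotated genes that fell on the 8 hemoglobin genes, in percent, for each plasma EV library (left) and brain EV library (right), with points for single rats and bars for mean ± SD (n = 3); the y axes differ in scale. In plasma the 4 d libraries sat at 0.893% to 3.31% and the hNSCs 31 d libraries at 21.8% to 28.2%, and no brain library exceeded 0.142%.

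By mean the order in plasma was hNSCs 31 d (24.0% ± 3.66, SD, n = 3), hNSCs 10 d (21.9% ± 8.27), control 10 d (16.2% ± 1.99), control 31 d (11.4% ± 5.32), healthy (7.31% ± 3.20), control 4 d (2.49% ± 0.848) and hNSCs 4 d (1.40% ± 0.517). Neighbours in this order overlapped except healthy and control 4 d. Without hNSCs 4 d replicate 2, the shallowest library, the lowest share was 1.39%, in the same group. Shares over members carry no test here, and the tests below are those of the single genes.

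Levels of different genes are compared in FPKM, fragments scaled by transcript length and library size, as deposited. The alpha chain genes Hba2 and Hba1 had the highest mean FPKM of all annotated genes in plasma, at 24000 and 22170 over 21 libraries. Their beta chain partners LOC100134871 (5504) and Hbb (4303) came next, and Hbb-b1 (1228), LOC689064 (1039) and Hba-a1 (782) ranked 19, 23 and 33. Hbq1b, whose theta chain is not a known part of circulating hemoglobin, ranked 1095 at 16.7 FPKM.

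Hba2 was at 15962, 6052 and 18620 FPKM in healthy plasma, and at 5108, 4519 and 3218 in control plasma at 4 d, 21867, 26831 and 33475 at 10 d and 15654, 19658 and 39309 at 31 d. With hNSCs it was at 2285, 1522 and 2547 FPKM at 4 d, 61429, 49839 and 19485 at 10 d and 65224, 46054 and 45336 at 31 d. The 4 d libraries were the lowest of all in both treatments and did not overlap with any other group, and the highest library at 4 d was below the lowest healthy one. Hba1 followed the same course, from 4115, 3929 and 2516 FPKM in control plasma at 4 d to 18248, 25831 and 30409 at 10 d, with healthy libraries at 14954, 4334 and 16939. It stood at 64473, 47074 and 45952 FPKM in hNSCs plasma at 31 d against 14360, 18656 and 37436 in control plasma at 31 d.

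Of the beta genes, Hbb was at 3173, 1064 and 3668 FPKM in healthy plasma, 878, 800 and 649 in control plasma at 4 d, 4106, 5384 and 5669 at 10 d and 2525, 3252 and 6654 at 31 d. With hNSCs it was at 442, 265 and 557 FPKM at 4 d, 10469, 9067 and 3329 at 10 d and 11769, 8317 and 8329 at 31 d. Groups at 4 d were again lowest, and at 31 d every hNSCs library was above every control library. LOC100134871 ran from 462 FPKM in an hNSCs library at 4 d to 14686 in one at 31 d, and LOC689064 from 85.6 to 2911 FPKM in the same pair of groups.

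Hbb-b1 had the narrowest range of the beta genes in fold. It was at 461, 409 and 444 FPKM in control plasma at 4 d and 281, 296 and 287 with hNSCs, against 999, 395 and 1093 in healthy plasma and 1234, 1637 and 1406 in control plasma at 10 d. In FPKM the control 4 d libraries overlapped with healthy replicate 2, whereas those of Hba1, Hba2, Hba-a1, LOC100134871, Hbb and LOC689064 did not overlap with any healthy library. Hbq1b was at 10.9, 1.34 and 14.8 FPKM in healthy plasma, 0, 0.306 and 0.291 in control plasma at 4 d (0, 30 and 36 counts), and 0, 2.00 and 1.30 with hNSCs at 4 d (0, 68 and 184 counts). At 10 d it was at 15.2, 23.2 and 23.9 FPKM in control plasma, and it reached 43.1, 49.9 and 41.0 in hNSCs plasma at 31 d.

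**Figure D2:**
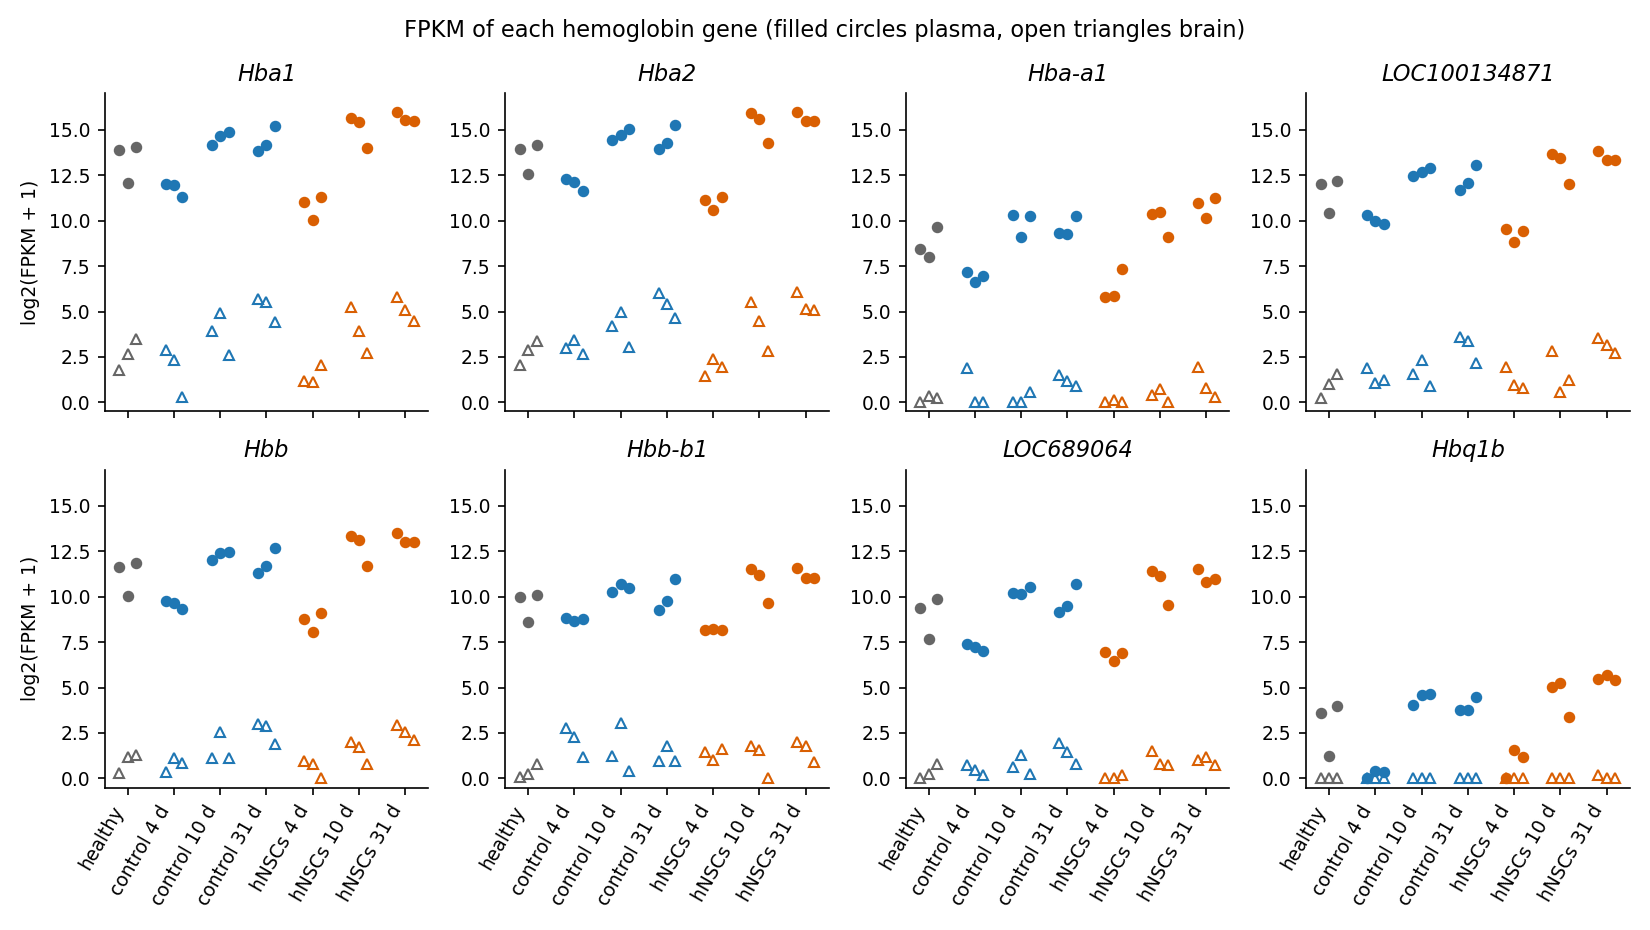
Level of each hemoglobin gene as log2(FPKM + 1) in every library, with filled circles for plasma EVs and open triangles for brain EVs of the same rats, 3 rats per group. In plasma each gene had its lowest group means at 4 d, and in brain Hbq1b was at 0 in 20 of 21 libraries.

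The course after stroke was followed in the control groups, which differ from the healthy rats in the occlusion, in the surgery and in the saline injection on day 3, so that these cannot be told apart. From 4 d to 10 d poststroke all 8 hemoglobin genes rose in control plasma EVs, by edgeR's quasi-likelihood test with Benjamini-Hochberg adjustment over all 14720 genes tested and a change over 1.5-fold. Among all tested genes 54 rose by that rule, a share of 0.367% (0.0204% fell), and the median log2 fold change was 3.14 over the 8 genes and -0.06 over all genes tested. All 8 were also higher in each 10 d library than in each 4 d library in CPM, which held for 5.36% of genes tested. The samples are separate rats, and the p-values measure the spread between them.

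Hba2 rose by 3.06 on the log2 scale (SE 0.449, n = 3 and 3, edgeR adjusted p = 0.00145) and Hba1 by 3.19 (SE 0.489, edgeR adjusted p = 0.00158). Hba-a1, the least abundant of the alpha genes, rose by 3.51 (SE 0.581, edgeR adjusted p = 0.00396). Among the beta genes LOC689064 rose by 3.49, Hbb by 3.10 and LOC100134871 by 3.04, with edgeR adjusted p of 0.00139, 0.00148 and 0.00145, while Hbb-b1 rose least, by 2.12 (SE 0.440, edgeR adjusted p = 0.0315). Summed over copies, the alpha family rose by 3.13 and the beta family by 2.97 (edgeR adjusted p = 0.00172 and 0.00177). Hbq1b had a fitted rise of 7.06 (SE 1.35, edgeR adjusted p = 0.0156), a value that rests on 0, 30 and 36 counts at 4 d and so depends on how the fit treats low counts.

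DESeq2 called the same 8 genes higher, in a comparison where it called 3.93% of all genes higher, and limma on log2(FPKM + 1) called 7 (0.34% of all genes higher). Scaling moved the size and not the direction: without a normalization factor Hba2 rose by 2.67 on annotated counts and 2.39 on all counts. The call on Hbb-b1 was lost under limma, without a normalization factor, with the replicate number as a block, in a fit of the 2 groups alone, and without any library of either group other than control 10 d replicate 3. The call on Hbq1b was lost in a fit of the 2 groups alone and without control 4 d replicate 2 or 3.

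The fall before that rise did not pass the main test. At 4 d the control rats had lower values than the healthy rats for all 8 genes in CPM, with no overlap between the groups, a pattern shared by 8.4% of genes tested. The log2 fold change was -1.73 for Hba2 (SE 0.427), -1.80 for Hba1, -1.82 for Hbb, -1.74 for LOC100134871, -2.05 for LOC689064, -2.10 for Hba-a1 and -1.01 for Hbb-b1. Hbq1b had a fitted value of -5.33 on its low counts. edgeR called 0 of the 8 (0.0679% of all genes in either direction, 0.0611% lower), with 8 at an unadjusted p under 0.05 and a lowest adjusted p of 0.221, limma called 0 and DESeq2 called 7 lower (4.85% of all genes lower). Without the shallowest healthy library edgeR still called 0, with -1.86 for Hba2 and -1.99 for Hbb. This comparison and the one from 4 d to 10 d share the 3 control 4 d libraries.

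At 10 d the control values were above the healthy ones, with a log2 fold change of 1.12 to 1.73 and a median of 1.36, and 7 of the 8 genes did not overlap between the groups (3.64% of all genes higher without overlap). edgeR called 0 of the 8 (0.0% of all genes), with 7 at an unadjusted p under 0.05 and a lowest adjusted p of 0.750, and DESeq2 called 7 (1.21% of all genes higher). In control plasma 3 genes, LOC100134871, Hbb and Hbq1b, were lower in CPM at 31 d than at 10 d without overlap (4.85% of all genes). In FPKM each of them overlapped between these groups. From 10 d to 31 d in control plasma the log2 fold changes were -1.01 to -0.58, with 0 called by edgeR (0.0% of all genes) and 0 at an unadjusted p under 0.05. Without control 31 d replicate 3 these fold changes were -1.49 to -1.08, Hba1 going to -1.08 and Hbb-b1 to -1.45, with a lowest edgeR adjusted p of 0.610. Control plasma at 31 d against healthy plasma gave 0.28 to 0.80, with 0 called (0.0% of all genes) and 0 at an unadjusted p under 0.05, and without control 31 d replicate 3, the highest of its group, LOC100134871, Hbb, Hbb-b1 and LOC689064 fell to -0.0025, -0.03, -0.33 and -0.05.

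**Figure D3:**
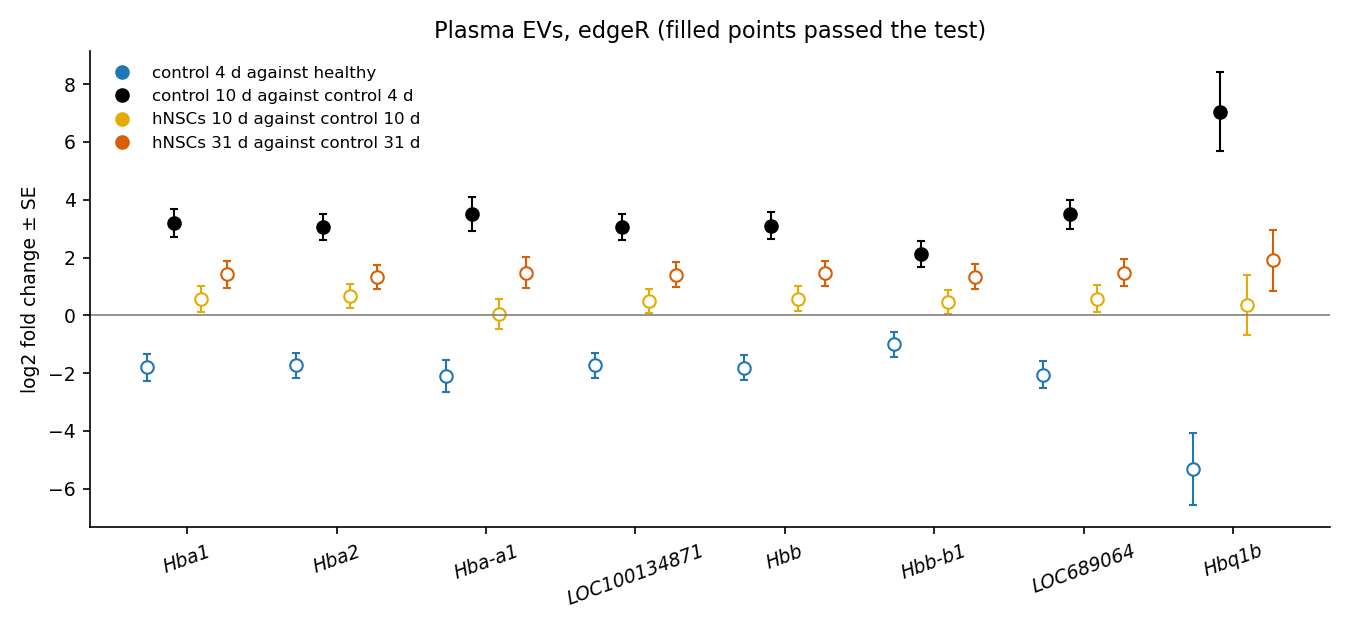
Fold change of each hemoglobin gene in plasma EVs on the log2 scale in 4 comparisons (edgeR, points ± SE, 3 libraries per group; filled points passed an adjusted p of 0.05 and 1.5-fold). Only the points of control 10 d against control 4 d are filled, from 2.12 for Hbb-b1 to 7.06 for Hbq1b, and the points of hNSCs 31 d against control 31 d lie at 1.32 to 1.90 without passing.

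Other products of the red cell lineage were read from lists that were chosen, like the genes themselves, with earlier results of these data known. From 4 d to 10 d in control plasma 10 of 29 tested genes of the red cell membrane and cytosol rose and none fell (median log2 fold change 3.28), among them Ube2o, Kel, Car2, Bpgm, Sptb, Add2, Epb41, Cat and Bnip3l. Of those named, only Bpgm and Epb41 were chosen for their level and the others for passing. Bpgm, which makes the 2,3-bisphosphoglycerate that lowers the oxygen affinity of hemoglobin, rose by 3.52 (edgeR adjusted p = 0.00145), and Epb41, a protein of the membrane skeleton, by 2.94 (edgeR adjusted p = 0.0049). The anion exchanger Slc4a1 was at 3.70, 2.32 and 0 FPKM at 4 d and 76.9, 59.3 and 95.2 at 10 d, a fitted change of 5.62 that did not pass (edgeR adjusted p = 0.112). The summed level of that list was 1428 to 1753 CPM in control plasma at 4 d, 3599 to 5697 in healthy plasma and 10476 to 14727 in control plasma at 10 d.

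Of 16 tested genes of heme synthesis 3 rose to 10 d and none fell (median 2.13). Alas2, the enzyme that starts heme synthesis in erythroid cells, went from 10.1, 17.1 and 15.05 FPKM to 265, 316 and 406, a rise of 4.96 on the log2 scale (edgeR adjusted p = 0.000272). Fech, which inserts iron into the ring, rose by 4.63 (edgeR adjusted p = 0.000272) and the mitochondrial carrier Slc25a39 by 2.68 (edgeR adjusted p = 0.00158). Of 14 tested erythroid factors 2 rose (median 1.27), Hemgn by 3.61 (edgeR adjusted p = 0.0018) and Klf1, which was listed at 0 in control plasma at 4 d and is named only because it is one of these 2, after its values were seen. Ahsp, the chaperone of free alpha chains, had 2.85 (edgeR adjusted p = 0.067), Nfe2 1.38 and Tal1 1.15, none of them passing. Of 5 tested genes annotated as other globins LOC103694857 rose by 2.77 (edgeR adjusted p = 0.00581), and LOC103694855 had 1.92 (edgeR adjusted p = 0.0576).

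Against healthy plasma, control plasma at 4 d had 3 of the 29 red cell genes lower (Kel and Ube2o among them, median of the list -1.78) and Alas2 as the one of 16 heme genes that was lower, by -3.31 (edgeR adjusted p = 0.0164). Kel, which carries a blood group antigen, was at 0 in all control 4 d libraries, and Ube2o, a ubiquitin ligase of reticulocytes, had -3.33 (edgeR adjusted p = 0.0149). At 31 d with hNSCs none of these lists had a gene that passed, and the medians were 1.47 for red cell and 0.82 for heme genes.

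Markers of other blood and tissue cells were read in the same libraries. From 4 d to 10 d in control plasma none of the platelet, neutrophil and monocyte, T and B cell, liver, neuron and glia, endothelial and mural or heme clearance genes passed the test. Their median log2 fold changes were 1.75, -2.09, 1.79, -0.56, 0.52, -0.79 and -0.95. The summed T and B cell level was 50.8 to 190 CPM at 4 d and 308 to 348 at 10 d, with 1 marker at 0 at 4 d, so that it moved in the direction of the hemoglobin genes without overlap. The summed neutrophil and monocyte level was 1800 to 7326 CPM at 4 d and 559 to 1130 at 10 d, with 1 and 2 markers at 0. Platelet genes (1274 to 6402 against 2740 to 30297 CPM) and liver genes (148 to 26247 against 5669 to 19298 CPM) overlapped, with none at 0. Annotated genes also took more of the counts at 4 d (60.9% to 75.3%) than at 10 d (48.6% to 56.5%). The part of these markers, and of that share, in the change of the hemoglobin genes was not tested.

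The effect of hNSCs was asked at each time against the control rats. At 4 d the log2 fold changes in plasma ran from -0.85 to 2.49. edgeR called 0 of 8 (0.00679% of all genes in either direction), with Hbq1b alone at an unadjusted p under 0.05, at 2.49 on low counts. Hbb (-0.72) and Hbb-b1 (-0.47) were lower in CPM without overlap, as were 4.36% of all genes. In FPKM Hba2, LOC100134871 and LOC689064 were also lower without overlap, whereas Hba1, Hba-a1 and Hbq1b overlapped. The share of all genes on that scale is not given here. Without hNSCs 4 d replicate 2 edgeR called 0 as well, and Hba2 had -0.62, Hbb -0.43 and Hbq1b 1.83. At 10 d the values were 0.05 to 0.65, with 0 called (0.0% of all genes) and 0 at an unadjusted p under 0.05, and hNSCs replicate 3 lay below the control libraries for Hba1, Hba2 and Hbb in FPKM while the other two lay above them.

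At 31 d all 8 genes were higher with hNSCs, 7 of them without overlap in CPM (4.6% of all genes), and the median log2 fold change was 1.43 against -0.10 over all genes tested. Hba2 had 1.32 (SE 0.423), Hba1 1.41, Hba-a1 1.47, LOC100134871 1.40, Hbb 1.45, Hbb-b1 1.33, LOC689064 1.47 and Hbq1b 1.90. This did not pass: edgeR called 0 (0.0% of all genes), with 7 at an unadjusted p under 0.05 and a lowest adjusted p of 0.460, limma called 0 and DESeq2 called 6 (2.23% of all genes higher). Whether the effect of hNSCs differed between times was tested as an interaction. Between 4 d and 10 d the differences ran from -2.15, that of Hbq1b, to 1.51. In this step 2 of the 8 genes were at an unadjusted p under 0.05, Hba2 with 1.51 (edgeR adjusted p = 0.830) and Hbb with 1.29 (edgeR adjusted p = 0.873). From 10 d to 31 d no gene was, with differences of 0.67 to 1.56 and a lowest edgeR adjusted p of 0.487. At either step 0 of the 8 were called (0.00679% and 0.0% of all genes in either direction).

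None of the markers of other cells passed the test for hNSCs at any of the 3 times or for either interaction. At 31 d the median log2 fold change with hNSCs was 1.77 for platelet genes and -2.01 for liver genes, and from 10 d to 31 d the median difference of the hNSCs effect was 3.16 and -2.28, against -0.48 over all genes tested. Platelet genes thus had positive medians, as the hemoglobin genes did, but their summed level overlapped between the groups at 31 d, at 2029 to 2746 CPM in control and 1831 to 20218 CPM in hNSCs plasma. Liver genes overlapped as well, at 4083 to 37604 and 1503 to 11763 CPM, and none of either list was at 0 in a group. From 4 d to 10 d the median difference was -3.22 for platelet genes. Fewer genes were detected in hNSCs plasma at 31 d (8688 to 10271) than in control plasma (10006 to 12555), with an overlap. The part of these values in the hemoglobin levels was not tested.

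The 5 genes most like Hba2 over the 21 plasma libraries, by Pearson r of log2(CPM + 1) among 14707 genes, were Bpgm (0.986), Fam46c (0.983), Car2 (0.980), Slc25a39 (0.980) and LOC682812 (0.973). Those most like Hbb were Fam46c (0.987), Bpgm (0.986), Car2 (0.983), Slc25a39 (0.979) and Alas2 (0.976). These libraries share the differences between groups and in depth, and r is given as a description. The members were tied to each other with r of 0.868 to 0.998 in plasma, and with r of -0.0437 to 0.859 in brain, where all 6 pairs that hold Hbb-b1 lay between -0.0437 and 0.0711 and the pair of LOC100134871 and Hba-a1 was at 0.00274.

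In brain EVs the hemoglobin genes were a minor component. They took 0.0122% to 0.142% of annotated counts (median 0.0458%), on 346 to 8699 counts per library. The share was 0.0247%, 0.0226% and 0.0519% in healthy brain. In control brain it was 0.0246%, 0.0256% and 0.0126% at 4 d, 0.0752%, 0.134% and 0.0385% at 10 d and 0.0558%, 0.0544% and 0.0458% at 31 d. With hNSCs it was 0.0259%, 0.0122% and 0.0137% at 4 d, 0.142%, 0.125% and 0.118% at 10 d and 0.0549%, 0.0517% and 0.0419% at 31 d. The hNSCs libraries at 10 d were above every library outside the 10 d groups, and neighbours in the order of group means all overlapped. In the 10 d libraries annotated genes took only 3.18% to 16.9% of counts, so the denominator of these shares is small there.

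The alpha genes again led. Hba2 ranked 50 among annotated genes in brain with a mean of 21.1 FPKM, Hba1 77 with 17.3, LOC100134871 922 with 3.60, Hbb 1577 with 2.43 and Hbb-b1 2078 with 1.94. LOC689064 averaged 0.759 FPKM and was at 0 in 3 libraries, Hba-a1 averaged 0.601 and was at 0 in 8, and Hbq1b was seen in 1 of 21 libraries, with 14 counts in hNSCs 31 d replicate 1. With Hbq1b below the filter on low counts, 7 of the 8 genes were among the 14515 tested.

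Hba2 in brain was at 3.18, 6.502 and 9.55 FPKM in healthy rats (176, 434 and 741 counts) and at 6.82, 9.77 and 5.45 in control rats at 4 d, 17.6, 30.5 and 7.40 at 10 d and 62.8, 41.5 and 24.0 at 31 d. With hNSCs it was at 1.69, 4.25 and 2.87 FPKM at 4 d, 45.6, 21.6 and 6.24 at 10 d and 66.8, 34.9 and 33.2 at 31 d. In FPKM the 31 d libraries were the highest groups and their neighbours overlapped, and at 31 d annotated genes also took their largest share of the counts. By limma on log2(FPKM + 1), 6 of the 7 tested genes were higher in control brain at 31 d than in healthy brain, but so were 57% of all genes. On counts scaled over annotated genes, edgeR gave Hba2 a log2 fold change of 2.06 from control 4 d to control 10 d (SE 0.366, edgeR adjusted p = 0.106) and of -0.70 from there to 31 d. With counts scaled on all rows, new genes included, the first value was 1.16 (edgeR adjusted p = 0.510) and the second turned to 0.95.

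In that step from 4 d to 10 d edgeR called 0 of 7 in brain (0.0% of all genes), with 3 at an unadjusted p under 0.05. Those were Hba2, Hba1 with 2.98 (edgeR adjusted p = 0.405) and Hbb with 2.34 (edgeR adjusted p = 0.720), and the same 3 were higher in CPM without overlap (2.98% of all genes). In FPKM Hba2 and Hba1 overlapped between these groups and Hbb did not. DESeq2 called 2 (0.365% of all genes higher). Without control 10 d replicate 3, in which Hba2 was lowest of its group, edgeR called Hba2 in this step, at 2.40, and against healthy brain, at 1.63. Control brain at 10 d against healthy brain gave Hba2 1.29 (edgeR adjusted p = 0.108) and Hbb-b1 2.98 (edgeR adjusted p = 0.290), with 0 called by edgeR (0.572% of all genes in either direction, 0.537% higher and 0.0344% lower), 2 at an unadjusted p under 0.05 and 1 called by DESeq2 (3.58% of all genes higher). Both genes overlapped between these groups in CPM.

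Between control brain at 4 d and healthy brain 1 of the 7 tested members was higher and 1 lower without overlap in CPM, shares near those over all genes (13.9% higher and 10.4% lower). Hba1 was at 2.45, 5.40 and 10.1 FPKM in healthy brain and 6.48, 4.07 and 0.237 in control brain at 4 d, a log2 fold change of -1.79 (SE 0.628, edgeR adjusted p = 0.168). Hbb-b1 was at 0.0433, 0.190 and 0.702 FPKM in healthy brain (3, 15 and 63 counts) and 5.86, 3.93 and 1.28 in control brain (380, 184 and 87 counts), a log2 fold change of 2.55 (SE 1.18, edgeR adjusted p = 0.305). The Hbb-b1 groups did not overlap on either scale, and those of Hba1 overlapped in FPKM but not in CPM. edgeR called 0 of 7 (0.861% of all genes in either direction, 0.73% higher and 0.131% lower), with 1 higher and 2 lower at an unadjusted p under 0.05. With counts scaled on all rows, new genes included, Hba1 had -0.93 and Hbb-b1 3.37 (edgeR adjusted p = 0.718 and 0.287).

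The other brain comparisons also gave 0 calls by edgeR. Control brain at 31 d against healthy brain gave 0.59 for Hba2, with 0 at an unadjusted p under 0.05 (0.00689% of all genes called), and 2.18 when counts were scaled on all rows, new genes included (edgeR adjusted p = 0.087). From 10 d to 31 d Hbb-b1 had -2.84 (edgeR adjusted p = 0.455, 0.152% of all genes called, 0.0965% higher and 0.0551% lower). It was at 1.31, 7.42 and 0.308 FPKM in control brain at 10 d and 0.956, 2.38 and 0.961 at 31 d, with overlap. With counts scaled on all rows, new genes included, the value was -1.24 (edgeR adjusted p = 0.475). With hNSCs Hba2 had -0.72 at 4 d, lower without overlap (6.82% of all genes), 0.72 at 10 d (edgeR adjusted p = 0.683 and 0.379), and at 31 d the 7 genes had -0.77 to 0.39 (0.0% of all genes called at each time). The interaction of hNSCs and time called 0, with Hba2 at 1.44 from 4 d to 10 d (edgeR adjusted p = 0.342).

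Genes of the red cell lists differed widely in brain EVs. Alas2 and Slc4a1 had 0 counts in all 6 libraries at 4 d, and Ahsp had 0 counts in healthy brain and 36 and 19 counts in 2 of the libraries at 4 d. Sptb, Ube2o and Add2, of which Sptb and Add2 are also known from neurons, led the red cell list with means of 426, 359 and 346 CPM over all 21 brain libraries and were seen in each. No gene of the red cell, heme synthesis or erythroid lists passed in any of the 8 brain comparisons. Of the genes that bind and clear hemoglobin, heme and iron, 2 of 15 tested rose in control brain at 10 d against healthy brain, the ferritin chains Fth1 by 2.28 and Ftl1 by 4.68 (edgeR adjusted p = 0.046 and 0.0254). Against control brain at 4 d neither passed, with 0.31 for Fth1 and 1.29 for Ftl1. Their mean levels in control brain were 2234 and 493 CPM at 4 d and 2771 and 1205 CPM at 10 d. The summed neutrophil and monocyte level was 24.6 to 55.7 CPM in healthy brain and 230 to 633 in control brain at 4 d, with 12 and 6 of 15 markers at 0, and its part in the brain values was not tested.

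The make-up of the hemoglobin RNA differed at 4 d in both tissues, a grouping that was chosen after the values were seen and carries no test. In plasma Hbb-b1 made up 16.6% to 26.7% of the summed FPKM of the 4 beta genes in the 6 libraries at 4 d (median 17.5%) and 8.64% to 13.0% in the other 15 (median 9.68%). In brain it made up 31.3% to 69.8% at 4 d (median 49.1%) and 0% to 41.6% elsewhere (median 12.2%), with some overlap. Summed alpha over summed beta FPKM in brain was 0.536 to 2.11 at 4 d (median 1.86) and 3.32 to 11.8 elsewhere (median 5.30), without overlap. The same ratio in plasma was 2.39 to 3.61 at 4 d (median 2.97) and 3.43 to 4.36 elsewhere (median 4.00). Hba2 over Hba1 was 0.978 to 1.42 in plasma and 0.929 to 23.0 in brain (median 1.22), the highest in a library with 15 counts of Hba1. Reads shared by copies enter all of these values.

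**Figure D4:**
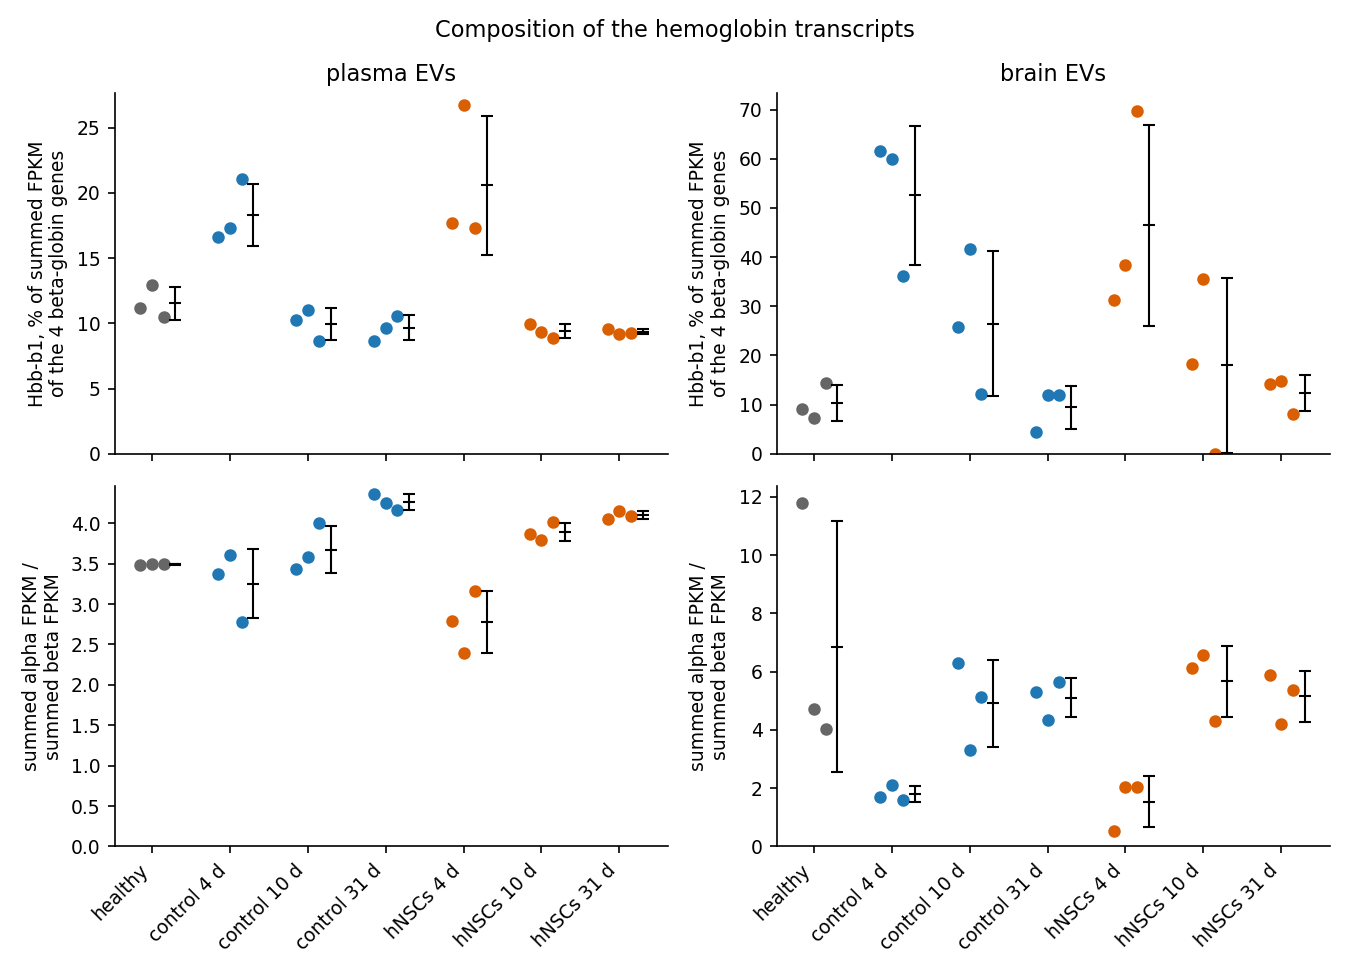
Share of Hbb-b1 in the summed FPKM of the 4 beta-globin genes (top, percent) and ratio of summed alpha to summed beta FPKM (bottom), in plasma EVs (left) and brain EVs (right), with points for single rats and bars for mean ± SD (n = 3 per group). At 4 d Hbb-b1 took 16.6% to 26.7% of beta FPKM in plasma, above all other libraries, and the brain ratio of alpha to beta stayed at or below 2.11.

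Plasma and brain of the same rat were compared in one model with the rat as a block. All 8 genes were higher in plasma, as were 25.7% of the 13470 genes tested. Hba2 was higher by 7.96 on the log2 scale (SE 0.296, edgeR adjusted p = 2.76e-17), Hba1 by 8.32, Hba-a1 by 9.31, LOC100134871 by 8.43, Hbb by 8.69, LOC689064 by 8.44, Hbb-b1 by 7.58 and Hbq1b by a fitted 11.77. The direction held in 21 of 21 rats for 7 genes and in 19 of 21 for Hbq1b. The plasma share of annotated counts was 73.0 to 524 times the brain share of the same rat (median 186), 73.0 to 134 times in the rats at 4 d and 421 to 524 times in hNSCs rats at 31 d.

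Whether brain levels followed plasma levels across rats was asked by correlating log2(FPKM + 1) in both tissues for the 3369 genes that were abundant enough in each, of which 1 passed an adjusted p of 0.05 (0.0297%). That gene was Hba1, with Pearson r = 0.798 over 21 rats (permutation p = 1e-05, the smallest that 100000 permutations can give, adjusted p = 0.0337), Spearman rho = 0.775 (adjusted p = 0.236) and r = 0.736 without the 2 rats farthest from the median. Hba2 had r = 0.762 (permutation test, adjusted p = 0.118), Hbb 0.631 (adjusted p = 0.775), LOC100134871 0.447 and Hbb-b1 0.082, against a median of 0.121 over all 3369 genes. With group means removed, r was 0.283 for Hba1, 0.187 for Hba2, -0.026 for Hbb, 0.043 for LOC100134871 and 0.394 for Hbb-b1, and none of these passed (permutation test, lowest adjusted p = 0.773). In the 15 rats of groups other than 4 d, a choice made after seeing the data, Hba1 had r = 0.508 (permutation p = 0.0511), Hba2 0.553 (permutation p = 0.0315), Hbb-b1 0.550 (permutation p = 0.0337), Hbb 0.356 and LOC100134871 0.312, each with an adjusted p of 1.

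The small RNA libraries of the same rats, counted in unique molecular identifiers (UMIs), hold the erythroid miRNAs miR-451 and miR-144, which are cut from one cluster on chromosome 10 and accumulate in red cells. Their mature sequences are shown because their plasma levels can be set against globin mRNA of the same rat. They are RefSeq sequences of GRCr8, 5′ to 3′ on the plus strand, with the seed (bases 2 to 8) in capitals, and the 4 seeds differ.
miR-451-5p, chr10:63459585-63459606: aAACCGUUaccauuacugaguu
miR-451-3p: aUGGUAAUgguucucuugcugcu
miR-144-3p, chr10:63459446-63459465: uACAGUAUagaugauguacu
miR-144-5p, chr10:63459409-63459431: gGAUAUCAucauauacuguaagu

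miR-451-5p was at 1469, 773 and 3103 CPM in healthy plasma, and at 737, 1295 and 261 in control plasma at 4 d, 1027, 1864 and 2203 at 10 d and 465, 468 and 3219 at 31 d. With hNSCs it was at 695, 240 and 310 CPM at 4 d, 5110, 2921 and 653 at 10 d and 3087, 1595 and 780 at 31 d. The levels within a group spread widely and most groups overlapped. These values rest on 110 to 6066 UMIs of miR-451-5p per plasma library of 429365 to 1899541 UMIs, while brain libraries held 2 to 70.

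Across the 21 rats plasma Hba2 mRNA went with miR-451-5p at Pearson r = 0.750 (permutation test, adjusted p = 0.0004 over 10 pairs), Spearman rho = 0.735 and r = 0.647 without the 2 farthest rats. Hbb and miR-451-5p gave 0.754. The other pairs gave 0.720 and 0.723 for miR-144-3p with Hba2 and Hbb, 0.730 and 0.734 for miR-144-5p, and 0.700 and 0.705 for miR-451-3p. miR-486, another miRNA abundant in red cells, gave 0.477 and 0.492 (permutation test, adjusted p = 0.0292 and 0.0263). The values of miR-451-3p rest on 0 to 22 UMIs a plasma library (median 7) and those of miR-486 on 2 to 38 (median 13), against 110 to 6066 (median 1103) for miR-451-5p. With group means removed Hba2 and miR-451-5p gave r = 0.838. In the 15 rats of groups other than 4 d it was 0.584 (permutation test, adjusted p = 0.0307), and 9 of the 10 pairs had an adjusted p under 0.05 there, the exception being Hba2 with miR-486 (r = 0.484, adjusted p = 0.0659). The 10 pairs are not independent, since plasma Hba2 and Hbb had r = 0.998 with each other and miR-451 and miR-144 share a cluster. Whether other plasma miRNAs went with these genes as closely was not tested.

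**Figure D5:**
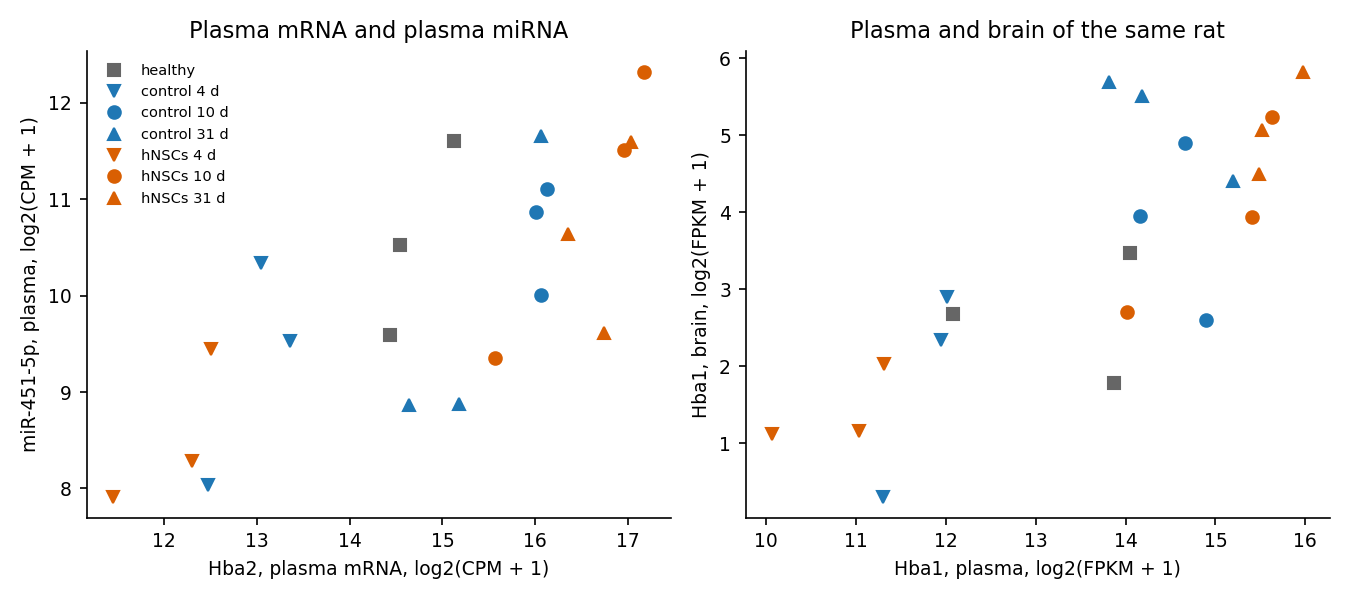
Each point is one of 21 rats, coloured by group. Left, log2(CPM + 1) of plasma miR-451-5p against plasma Hba2 mRNA (Pearson r = 0.750), and right, log2(FPKM + 1) of Hba1 in brain EVs against plasma EVs (r = 0.798), where the 6 rats of 4 d have the lowest plasma values and brain values of 0.237 to 6.48 FPKM that overlap those of other groups.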

How the data were processed

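Long RNA of the EVs was sequenced from SMARTer stranded total RNA libraries and small RNA from QIAseq miRNA libraries with UMIs. For the long RNA the authors aligned reads with Bowtie2 to Rnor 6.0 and calculated FPKM with StringTie. They deposited a table of raw counts per gene, new genes included, and a table of FPKM values. For the small RNA the authors kept reads of 18 to 30 bases and deposited UMI counts per miRNA and TPM, which here is UMIs scaled to the library total. The versions of Bowtie2 and StringTie, the strand setting of the counting and the treatment of reads shared by copies are not given in the sources used here. Both copies and overlapping genes can therefore exchange reads.

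The main test on counts of annotated genes was the quasi-likelihood test of edgeR 4.0.16 under R 4.3.3 (TMM factors, filterByExpr, 1 model of 7 groups per tissue), with a call at a Benjamini-Hochberg adjusted p under 0.05 over all genes tested and a change over 1.5-fold. The SE of a log2 fold change is its size over the square root of F. DESeq2 1.42.0 and limma 3.58.1, the tool that the study's methods name, were alternatives, limma on log2(FPKM + 1) or log2(FPKM + 0.1). Shares, ratios, correlations and figures came from scipy 1.17.1, pandas 2.3.3, numpy 2.4.6 and matplotlib 3.10.9 (Python 3.11.15), correlations with 100000 permutations for genes with a mean of at least 1 FPKM in both tissues. The fits were tested on simulated data. CPM are TMM-scaled.

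The members and lists were chosen with earlier results of these data known. Named genes are all members, the 3 genes of each list with the highest mean CPM, Alas2, Ahsp and Slc4a1, and the 5 most like Hba2 and Hbb; other list genes that passed are named after their values were seen. One gene of the red cell list is not reported here. Replicate numbers came from the labels, which do not say that a number marks a shared day or litter. Same-numbered samples deviated together with every r over 0.1 only in brain at 31 d between hNSCs and control (0.254, 0.280 and 0.330). Fits without shallow or sparsely annotated libraries, the share of all counts, the FPKM ratio and the 15 rats of groups other than 4 d were added after seeing the data.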

Additional observations from a re-analysis of the deposited data

Results flagged for a closer look

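In control rats at 4 d against healthy rats, Hbb-b1 had a log2 fold change of -1.01 in plasma, with every control library below every healthy one in CPM (as for 8.4% of all genes tested), and of 2.55 in brain, with every control library above every healthy one (as for 13.9% of all genes tested). The difference between the tissues was not tested. The effect of hNSCs in plasma also differed in direction between times without overlap of the groups, for Hbb with -0.72 at 4 d and 1.45 at 31 d, and for Hbb-b1 with -0.47 at 4 d and 1.33 at 31 d. The difference between 4 d and 31 d was not tested for either gene. Over all genes 4.36% were lower at 4 d and 4.6% higher at 31 d without overlap. None of these 6 values passed the main test.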

How the results depend on the processing

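Depth limits the brain values of members that rest on few counts, such as Hba-a1 and LOC689064, which were at 0 in 8 and 3 libraries, and the cause of the changes below was not tested. In place of 0 calls by edgeR, DESeq2 called 1 member in brain for control 10 d against healthy and 2 for control 10 d against control 4 d, and in plasma 7 for control 4 d against healthy, 7 for control 10 d against healthy and 6 for hNSCs 31 d against control 31 d. On log2(FPKM + 1) and log2(FPKM + 0.1) limma called 6 and 7 members in brain for control 31 d against healthy and 4 and 2 for control 31 d against control 10 d, comparisons in which it called 57% and 80.9%, and 51.9% and 71.4%, of all genes higher. The count of members whose brain and plasma levels correlated went from 1 to 0 on FPKM without log, to 0 with values centred within groups, to 2 on log2(CPM + 1), to 0 in the 12 rats without hNSCs and to 0 in the 15 rats of groups other than 4 d. The median brain share was 0.00708% of all counts, and the median plasma ratio of alpha to beta was 3.61 by FPKM.

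The values that turned had not passed the main test. In brain, with limma on log2(FPKM + 1), limma on log2(FPKM + 0.1) and edgeR scaled on all counts without a factor, Hba2 in control 4 d against healthy became 0.24, 0.29 and 0.071, Hbb-b1 in control 10 d against control 4 d became -0.53, -0.98 and -0.47, Hba2 in control 31 d against control 10 d became 1.26, 1.32 and 0.95 and Hbb 0.98, 1.31 and 0.90, Hbb in hNSCs 4 d against control became -0.19, -0.76 and -0.31, Hbb in hNSCs 10 d against control became -0.10, -0.13 and -0.22, and Hba2 in hNSCs 31 d against control became 0.10, 0.10 and 0.061. Hba2 there became 0.0075 without a factor on annotated counts, Hbb at 10 d became -0.0367 without the 3 sparsely annotated libraries, and the beta family summed became 0.36 in control 4 d against healthy. Other members turned in brain as well with counts scaled on all rows without a factor, among them the following. In control 31 d against control 10 d Hba1 became 1.02, LOC100134871 1.53 and LOC689064 0.99. In control 4 d against healthy LOC100134871 became 0.52 and LOC689064 0.19, and in control 10 d against healthy Hba-a1 became -0.024. In plasma Hba-a1 in hNSCs 10 d against control became -0.040 without a factor. The correlation between tissues became -0.092 for Hbb-b1 in the 12 rats without hNSCs and -0.026 for Hbb with centred values.

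Leaving out single libraries gave 6 to 8 calls for control 10 d against control 4 d in plasma, and 0 to 1 in brain both there and for control 10 d against healthy. In brain Hba-a1 in control 10 d against healthy turned to -6.60 without control 10 d replicate 3. That value is a fitted one, since the remaining control 10 d libraries were at 0 FPKM. Other values that turned ranged in brain from -1.32 to 0.99 for Hbb-b1 in control 10 d against control 4 d, -1.10 to 0.013 for Hbb in control 31 d against control 10 d, -0.66 to 1.04 and -0.10 to 1.03 for Hbb under hNSCs at 4 d and 10 d, and -0.084 to 0.058 for Hba2 under hNSCs at 31 d. In plasma they ranged from -0.029 to 0.76 for Hbb, -0.33 to 0.61 for Hbb-b1, -0.0025 to 0.75 for LOC100134871 and -0.049 to 0.96 for LOC689064 in control 31 d against healthy, and from -0.26 to 0.45 for Hba-a1 and -0.081 to 0.76 for Hbq1b under hNSCs at 10 d. With the replicate number as a block the plasma count for control 10 d against control 4 d went from 8 to 7, and no other count of members changed.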
